A study of Mus musculus with 4 samples.

Results

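CXC chemokines are small secreted proteins that draw leukocytes along a gradient through receptors of the G protein-coupled family. The group described here holds 10 gene symbols, read as all array probes whose gene name equals Cxcl1, Cxcl2, Cxcl5, Cxcl9, Cxcl10, Cxcl16, Cxcr2, Cxcr3 or Cxcr4. The tenth symbol, Il8rb, is an older name of Cxcr2 and no probe carried it. The rule found 12 probes of 9 genes, out of 28498 genes on the array.

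The study set granulocytes of miR-223 knockout (miR-223 KO) mice against those of wild type (WT) mice, with 2 arrays per genotype, to see which transcripts differ when this myeloid microRNA is missing. All 4 samples came from bone marrow of male C57BL/6 mice, grown for 4 days in 40 ng/ml GM-CSF, a cytokine that expands granulocytes and macrophages, and sorted as expanding immature granulocytes. The labels do not give the age of the mice, nor how the allele was made, nor whether replicates came from separate animals, so p-values measure only the spread between these samples, which may be technical. Cy3-labelled copies of the total RNA were read on Agilent mouse arrays, all on 1 slide with 1 scan time. WT array 2 had the fewest probes well above background, 57.6%, against 62.2% to 63.6% on the other 3 arrays. The values of the genes that stood highest on it are also given without it for Cxcl1, Cxcl2, Cxcl3, Cxcl10, Pf4, Ppbp, Rgs1 and Dusp1. For the non-members among these, this alternative was chosen after the data were seen.

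In neutrophils and their precursors the CXC system has a few well-known axes. Cxcl1, Cxcl2, Cxcl3 and Cxcl5 share the ELR motif and act through Cxcr2, the receptor that calls neutrophils out of marrow and into inflamed tissue. Cxcl9 and Cxcl10 lack that motif, are induced by interferons and act through Cxcr3, best known on activated T and NK cells. Cxcr4 holds granulocytes in the marrow through its ligand Cxcl12, and Cxcl16 is a membrane-anchored ligand of Cxcr6 that can be shed. Cxcl2 has been named as a miR-223 target in earlier literature.

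The microRNA at issue has 2 mature arms, shown here because the knockout lacks them. The seed, bases 2 to 8, is in capitals, and both come from RefSeq (GRCm38.p6, + strand), the 3p arm at chrX:96242884-96242905 and the 5p arm at chrX:96242842-96242864.
mmu-miR-223-3p: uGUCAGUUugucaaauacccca
mmu-miR-223-5p: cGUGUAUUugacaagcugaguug

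The array had 0 probes named for Mir223, so the genotype labels could not be checked on the targeted gene. The letters that pair with the 3p seed, AACTGAC, stood in 0 of the 12 probe sequences of the group, against 0.372% of all 41174 probes. That says only that these letters are not in the short stretches the probes read.

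Promoter windows from RefSeq were found for 7 of the 9 genes, and the stretches of 130 bases before the start of Cxcl1, Cxcl2 and Cxcl10 are printed, with Cxcl3 beside them, because Cxcl1 had the largest difference among the members, Cxcl2 the widest spread within genotypes, and Cxcl10 was the measured ligand of the interferon-induced pair. Capitals mark the letters GGGNNNTTC on either strand, the type of site NF-kB factors bind. Coordinates are GRCm38.p6: Cxcl1 chr5:90891115-90891244 (+), Cxcl2 chr5:90903769-90903898 (+), Cxcl3 chr5:90785971-90786100 (+) and Cxcl10 chr5:92348890-92349019 (-).
Cxcl1: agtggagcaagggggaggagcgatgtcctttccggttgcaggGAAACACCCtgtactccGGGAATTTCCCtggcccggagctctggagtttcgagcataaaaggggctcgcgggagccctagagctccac
Cxcl2: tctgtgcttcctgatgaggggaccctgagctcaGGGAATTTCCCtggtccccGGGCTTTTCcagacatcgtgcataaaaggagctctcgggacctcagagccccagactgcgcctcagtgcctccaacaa
Cxcl3: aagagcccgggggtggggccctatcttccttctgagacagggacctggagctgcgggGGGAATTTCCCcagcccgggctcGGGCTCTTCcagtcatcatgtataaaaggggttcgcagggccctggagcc
Cxcl10: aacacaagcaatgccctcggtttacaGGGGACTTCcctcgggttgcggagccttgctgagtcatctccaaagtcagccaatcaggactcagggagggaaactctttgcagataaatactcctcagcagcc

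The stretch GGGAATTTCCC stood in the windows of Cxcl1, Cxcl2 and Cxcl3, beginning at -71, -97 and -73 from their starts. It matches GGGNNNTTC on both strands at once, so the overlapping marks there are 1 place. It was singled out after the windows were read, and 14 of 32851 windows (from 250 bases before to 50 after a start) held it, or 0.0426%. The windows of Cxcl10 (-159 and -104), Cxcl9 (-154), Cxcr2 (-157), Cxcr3 (-86) and Cxcr4 (-223) held other matches to GGGNNNTTC, which 14.0% of all windows had. A match to AAANNGAAA, the type of site interferon-regulated factors bind, stood at -212 of Cxcl10, upstream of the printed stretch, and in no other of these windows, and 10.6% of all windows had one.

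**Figure D1:**
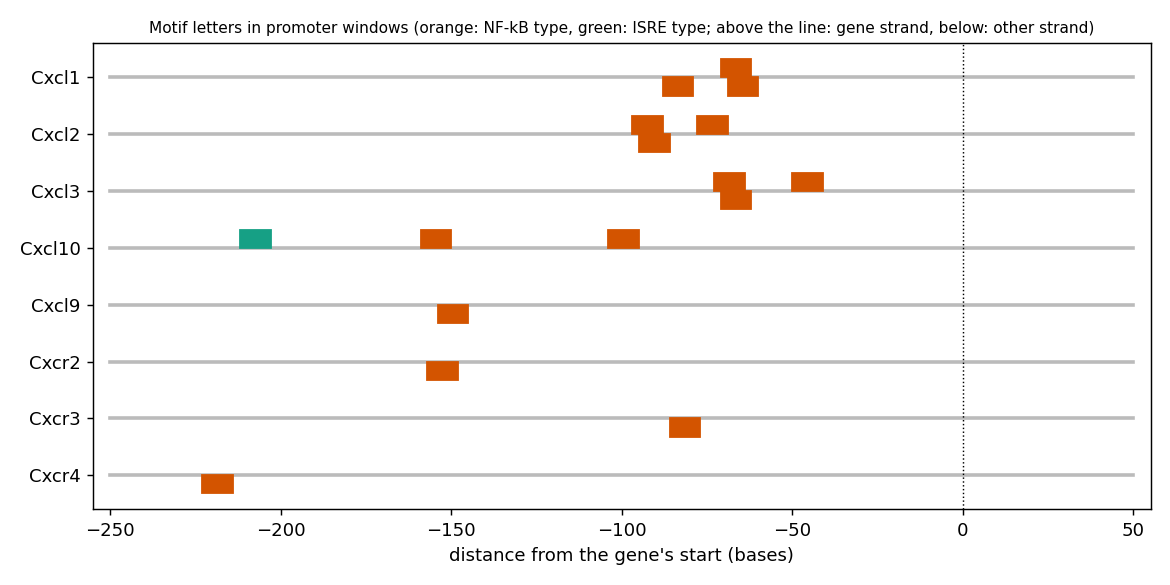
Position of motif letters in the promoter windows of 7 member genes and Cxcl3. The x axis is the distance from the gene's start in bases, boxes above a line are matches on the gene's strand and boxes below it on the other strand. Cxcl1, Cxcl2 and Cxcl3 each have a pair of overlapping NF-kB-type boxes within 100 bases of the start.

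Levels below are log2 processed intensities minus the array's 75th percentile, so that 0 is that percentile and 1 unit is a doubling. Levels of different probes are not comparable with each other. Differences are miR-223 KO minus WT, with limma's moderated standard error (SE, n = 2 arrays per group), and adjusted p-values are Benjamini-Hochberg values of limma's test over 16779 genes. With 2 arrays against 2, an exact two-sided permutation test has 6 arrangements and cannot go below p = 0.333, so no such test is given.

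Of the 9 genes, 7 passed the filter on dim signal (a signal well over background on both arrays of 1 genotype or of both) and Cxcl5 and Cxcl9 did not. None of the 7 passed an adjusted p of 0.05, and over all tested genes 0 passed (0.0%, limma; 932 lower and 1335 higher at an unadjusted p under 0.05). At an unadjusted p under 0.05, 1 member was counted, Cxcl1 in the lower direction, where 5.55% of all tested genes were lower and 7.96% higher in miR-223 KO at that level. Both KO arrays lay below both WT arrays for Cxcl1 and Cxcl16, where 20.2% of all genes did, and above them for Cxcr2 and Cxcr3, where 27.8% did. For Cxcl2, Cxcl10 and Cxcr4 the genotypes overlapped. The median difference of the 7 was -0.47, against 0.03 over all tested genes. It was -0.03 without KO replicate 1, -0.12 without KO replicate 2, -0.26 without WT replicate 2 and -0.21 with every probe as a feature of its own. The 4 ligands were all at negative differences, and of the 3 receptors Cxcr2 and Cxcr3 were at positive ones. The shares of all tested genes given here are also the background for the counts of every list below.

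**Figure D2:**
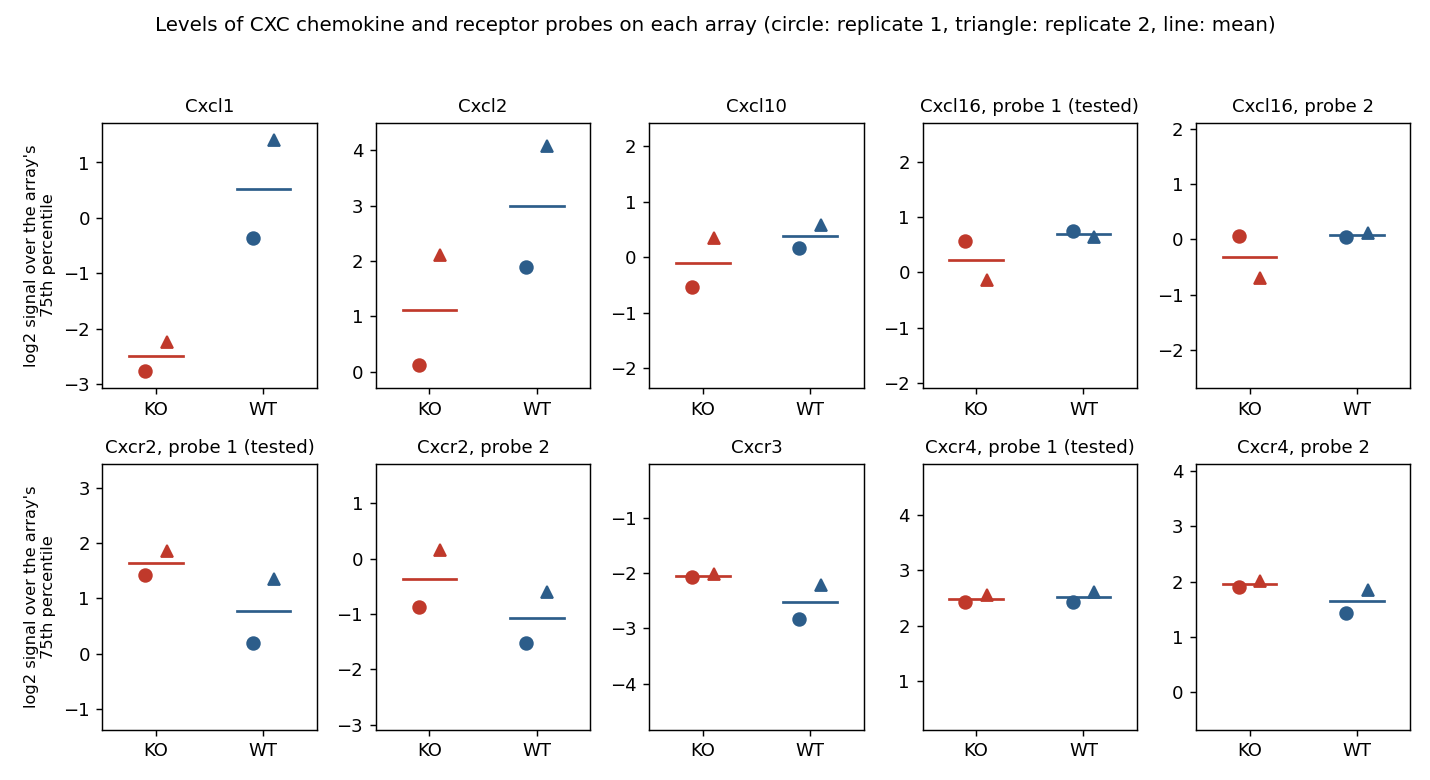
Level of each probe on each array for the 7 tested genes, as log2 signal over the array's 75th percentile (y axis, each panel spans the same number of log2 units), with miR-223 KO left of WT and lines at the group means of 2 arrays. Cxcl1 shows the 2 KO arrays at -2.77 and -2.24 under the WT arrays at -0.36 and 1.41, while for Cxcl2 the KO array at 2.11 stands above the WT array at 1.90.

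Cxcl1 (keratinocyte-derived chemokine), a main Cxcr2 ligand in mice, had the largest difference of the group. Its probe, on chromosome 5 (91321845 to 91321904, mm9, + strand), stood at levels of -2.77 and -2.24 on the miR-223 KO arrays, against -0.36 and 1.41 on the WT arrays. Both KO arrays thus lay below both WT arrays, and the WT arrays stood farther from each other (1.77) than the KO arrays (0.53). The means were -2.50 ± 0.37 in KO and 0.53 ± 1.25 in WT (SD, n = 2 each), a difference of -3.03 ± 0.63 (8.16-fold lower in KO; adjusted p = 0.258, limma). The 95% interval of the difference, not adjusted for the number of genes, ran from -4.72 to -1.34. Among all 16779 tested genes the difference ranked 17 from the lowest, while by p-value Cxcl1 ranked 438. Leaving out WT replicate 1 gave -3.91 (adjusted p = 0.0966) and leaving out WT replicate 2 gave -2.14 (adjusted p = 0.297).

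Cxcl2 (macrophage inflammatory protein 2), the closest relative of Cxcl1 and its neighbour on chromosome 5 (probe at 91334534 to 91334593, mm9, + strand), was bright and varied widely within each genotype. The processed intensity was 559 and 2133 on the miR-223 KO arrays, against 2192 and 8221 on the WT arrays. The levels were 0.12 and 2.11 in KO, against 1.90 and 4.08 in WT. The higher KO array lay above the lower WT array, so the genotypes overlapped, and the gaps within KO (1.99) and within WT (2.18) were each larger than the difference of means. Only 0.226% of tested genes had as wide a gap between the KO arrays, and 0.465% as wide a gap between the WT arrays. The difference was -1.88 ± 1.0 (3.67-fold lower in KO; 95% interval -4.55 to 0.80; adjusted p = 0.483, limma). It was -0.88 without KO replicate 1, -2.87 without KO replicate 2, -2.97 without WT replicate 1 and -0.79 without WT replicate 2.

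The scanner software's own error of the processed signal was 10% to 10.3% on every array for the probes of the 7 tested genes. Each probe was read by 1 spot per array.

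Cxcl5, another ELR ligand of Cxcr2, was near the floor of the arrays. Its probe (chromosome 5, 91190205 to 91190264, mm9, + strand) read processed intensities of 1.35 and 1.10 in miR-223 KO and 1.21 and 13.3 in WT. Only WT array 2 was well above background, so no fold is given and the gene entered no test.

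Other CXC ligands of the chromosome 5 cluster were taken from a list of 9 further CXC ligands. Of these 9, 3 were tested and 0 passed the test in either direction (limma, also 0 at an unadjusted p under 0.05). Cxcl3, also a Cxcr2 ligand, was at -1.24 and -0.35 on the KO arrays and at -0.48 and 2.63 on the WT arrays. The genotypes overlapped, WT array 2 stood apart from the other 3, and the difference was -1.87 ± 1.09 (adjusted p = 0.513, limma) and -0.32 without WT replicate 2. Pf4, platelet factor 4, stood at 0.92 and 1.37 in KO against 1.71 and 3.22 in WT, without overlap, at -1.32 ± 0.54 (adjusted p = 0.397) and -0.56 without WT replicate 2. Ppbp, the platelet basic protein whose cleaved form binds Cxcr2, stood at -3.47 and -2.46 in KO against -3.96 and -1.36 in WT and overlapped, at -0.31 ± 0.95 (adjusted p = 0.912) and 0.99 without WT replicate 2.

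WT array 2 had the highest level of Cxcl1, Cxcl2, Cxcl3, Pf4 and Ppbp. In RefSeq's order of coding genes these lie together between Cxcl5 and Mthfd2l, a mitochondrial folate enzyme gene. Mthfd2l itself was at -4.25 and -4.30 in KO and -3.92 and -3.49 in WT (-0.57 ± 0.19, adjusted p = 0.335). Cxcl15 of the same cluster, and Cxcl11, Cxcl12, Cxcl13 and Cxcl17 elsewhere, never reached a signal well above background. Cxcl14 did so only on WT array 2.

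The promoter stretch GGGAATTTCCC was carried by 14 genes, of which 8 were tested. Besides Cxcl1, Cxcl2 and Cxcl3 at -3.03, -1.88 and -1.87, these were Krtap5-3 (-1.01), Hpn (-0.33), Lyzl4 (0.02), Zfp84 (0.32) and the cytokine gene Il16 (0.67 ± 0.13; adjusted p = 0.251, limma). Il16 had both KO arrays (2.96 and 3.09) above both WT arrays (2.30 and 2.42). Krtap5-3 was dim, at -6.31 and -5.74 in KO and -5.55 and -4.48 in WT. The 8 genes with these letters therefore spanned both directions, and 0 passed the test. At an unadjusted p under 0.05 in limma, Cxcl1 was lower and Il16 higher, where 5.55% of all tested genes were lower and 7.96% higher.

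Cxcr2, the receptor of Cxcl1, Cxcl2, Cxcl3 and Cxcl5 and a marker of maturing neutrophils, lay on the other side of zero. Its tested probe (chromosome 1, 74206886 to 74206945, mm9, + strand) stood at 1.42 and 1.86 on the miR-223 KO arrays, against 0.20 and 1.35 on the WT arrays. Both KO arrays were above both WT arrays, though the lower KO value was close to the higher WT value. The difference was 0.86 ± 0.43 (1.82-fold higher in KO; 95% interval -0.29 to 2.02; adjusted p = 0.460, limma). A second probe (74206323 to 74206382) stood at -0.88 and 0.15 in KO against -1.53 and -0.60 in WT, with overlap, and gave 0.70 ± 0.47 in a fit over all probes (adjusted p = 0.579). The difference of the tested probe was 0.29 without WT replicate 1 and 1.44 without WT replicate 2. Cxcr1, the other receptor for some ELR ligands, was never well above background.

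**Figure D3:**
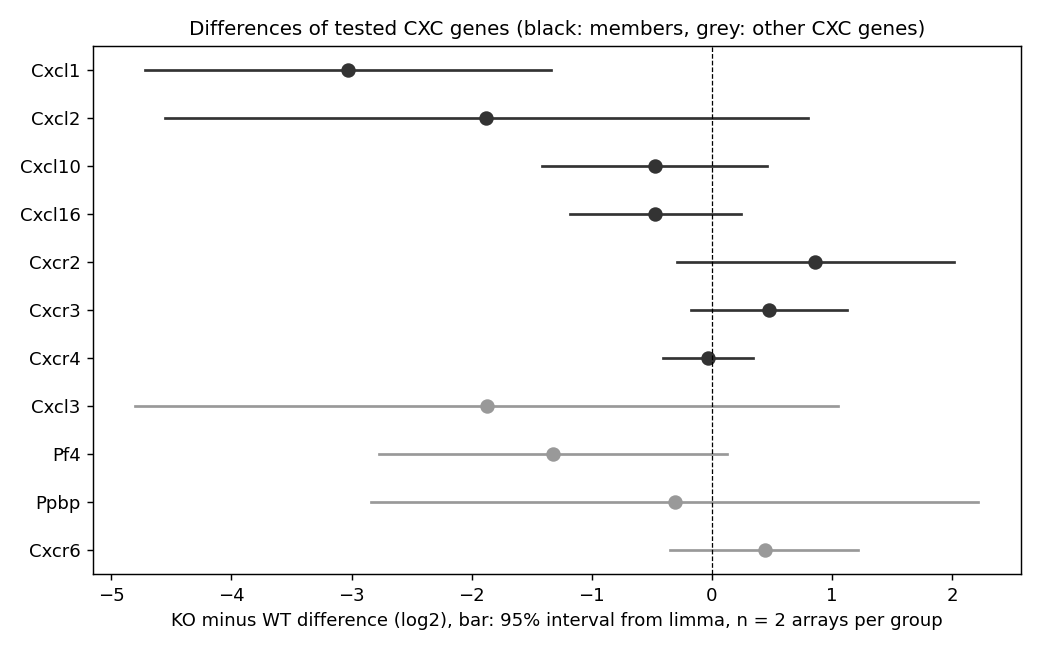
KO minus WT log2 differences (points) with limma's unadjusted 95% intervals (bars), n = 2 arrays per group, for the 7 tested member genes in black and for the tested genes Cxcl3, Pf4, Ppbp and Cxcr6 in grey. The interval of Cxcl1 (-4.72 to -1.34) leaves out 0 and those of the other 10 genes hold it.

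Of the interferon-induced pair, only Cxcl10 was measured. Cxcl9 (chromosome 5, 92752191 to 92752250, mm9, - strand) read 1.82 and 1.42 in miR-223 KO and 1.58 and 3.04 in WT as processed intensities, never well above background. Cxcl10 (chromosome 5, 92775781 to 92775840, - strand) was measured on all 4 arrays, at levels of -0.53 and 0.34 in KO and 0.16 and 0.59 in WT. The genotypes overlapped, and the difference was -0.47 ± 0.35 (95% interval -1.41 to 0.46; adjusted p = 0.595, limma). It was -0.03 without KO replicate 1, -0.91 without KO replicate 2, -0.69 without WT replicate 1 and -0.26 without WT replicate 2.

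Cxcr3, the receptor of Cxcl9 and Cxcl10 (chromosome X, 98926920 to 98926979, mm9, - strand), was above background on all arrays. It stood at -2.07 and -2.02 in miR-223 KO, against -2.84 and -2.21 in WT. The KO arrays nearly coincided and both lay above the WT arrays, by little over the higher of these. The difference was 0.48 ± 0.24 (1.39-fold higher in KO; 95% interval -0.17 to 1.13; adjusted p = 0.464, limma), and 0.16 without WT replicate 1 against 0.79 without WT replicate 2. Among T and NK cell markers, where Cxcr3 is best known, 5 of 9 were tested and 0 passed the test (limma). Both KO arrays lay above both WT arrays for 1 of them and below for 1 (27.8% and 20.2% of all tested genes). At an unadjusted p under 0.05 in limma, 1 was lower, as were 5.55% of all tested genes. Cd3g, Klrb1c and Ncr1 were never well above background, and the summed signal of the tested markers was 23.8 and 18.4 in KO and 20.7 and 20.5 in WT, in multiples of the 75th percentile. Their part in the Cxcr3 values was not tested.

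Cxcl16, the membrane-bound ligand that macrophages and dendritic cells carry, was read by 2 probes on chromosome 11. The tested probe spans 70269521 to 70272262 (mm9, - strand), longer than the probe itself, so it crosses at least 1 intron. It stood at 0.57 and -0.13 in miR-223 KO and at 0.74 and 0.64 in WT, both KO arrays below both WT arrays, with KO array 2 apart from the other 3. The difference was -0.47 ± 0.26 (1.39-fold lower in KO; 95% interval -1.18 to 0.24; adjusted p = 0.497, limma). The second probe (70267780 to 70267839) stood at 0.07 and -0.70 in KO against 0.04 and 0.12 in WT, and there the genotypes overlapped (-0.39 ± 0.28 in the fit over all probes; adjusted p = 0.600). Without KO replicate 2 the difference of the tested probe was -0.12, and without KO replicate 1 it was -0.82. Its receptor Cxcr6 was at -4.21 and -4.04 in KO and -4.95 and -4.17 in WT (0.44 ± 0.29, adjusted p = 0.561), with overlap.

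Cxcr4, the marrow retention receptor, was at nearly the same level on all 4 arrays by 1 of its 2 probes, the tested one. Its tested probe (chromosome 1, 130485079 to 130485138, mm9, - strand) stood at 2.43 and 2.56 in miR-223 KO and at 2.43 and 2.62 in WT. The genotypes overlapped, and the difference was -0.03 ± 0.14 (95% interval -0.41 to 0.34, adjusted p = 0.938, limma). A second probe (130485659 to 130485718) stood at 1.91 and 2.01 in KO and 1.44 and 1.84 in WT, without overlap. Its difference was 0.32 ± 0.18 in the fit over all probes (95% interval -0.16 to 0.81, adjusted p = 0.514, limma). The 2 probes thus differed in whether the genotypes overlapped, and the interval of the second reached higher. Neither probe of its ligand Cxcl12 was ever well above background, and neither were the atypical receptors Ackr1, Ackr2 and Ackr3 or the B cell follicle receptor Cxcr5.

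Of 23 genes that carry the signal of chemokine receptors, 22 were tested and 0 passed the test (limma; also 0 at an unadjusted p under 0.05). Both KO arrays lay above both WT arrays for 11 of them and below for 4 (27.8% and 20.2% of all tested genes), and the median difference was 0.13. Rgs1, a brake on G protein signalling induced on activation, was at 0.66 and 1.45 in miR-223 KO and at 1.96 and 4.76 in WT (-2.31 ± 0.99; adjusted p = 0.411, limma). WT array 2 was again the highest, and without it the difference was -0.91. Gng2, a G protein gamma subunit, was at 0.37 ± 0.16, Arrb2, the arrestin that uncouples chemokine receptors, at 0.46 ± 0.24 and Rgs18, a regulator of myeloid and platelet G protein signalling, at 0.23 ± 0.12, each with KO above WT and none past the test. Among 8 genes for shedding and cleavage of chemokines, 0 had genotypes apart, 0 passed the test at an adjusted or an unadjusted p under 0.05 (limma), and the median was 0.11. Mmp9, gelatinase B, was at 2.15 and 3.46 in KO and 0.64 and 2.60 in WT (1.19 ± 0.80), and Mmp8, neutrophil collagenase, was at 0.77 ± 0.50. Adam10, a sheddase of Cxcl16, was at -0.17 ± 0.15 and Dpp4, which trims several CXC ligands, at -0.54 ± 0.31.

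Inflammatory genes that NF-kB induces were set beside Cxcl1 and Cxcl2. Of 18 such genes 16 were tested, with a median of -0.16, 4 with both KO arrays below both WT arrays and 0 above (20.2% and 27.8% of all tested genes), and 0 passed the test (2 lower at an unadjusted p under 0.05). Ptgs2, the inducible cyclooxygenase, was at -5.90 and -4.73 in miR-223 KO and -3.47 and -2.49 in WT (-2.33 ± 0.53; adjusted p = 0.265, limma). Il6 was at -1.76 and -3.13 in KO and -0.35 and -0.37 in WT (-2.09 ± 0.48; adjusted p = 0.265). Traf1, a TNF receptor adaptor, was at -0.38 ± 0.16 and Tnf at -0.22 ± 0.13. The differences of Ptgs2 and Il6 were thus near that of Cxcl2 in size, while that of Tnf was close to 0. Ptgs2 was dim on KO array 1, with a processed intensity of 8.61 and a scanner error of 22.5%. Of the 16 tested genes, 11 had negative and 5 positive differences. Their summed signal was 215 and 259 in KO and 196 and 286 in WT.

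Interferon-induced genes, read beside Cxcl10, had a median of 0.00 over 19 tested of 20, with 4 below and 5 above without overlap (20.2% and 27.8% of all tested genes) and 0 past the test (limma; 3 lower and 3 higher at an unadjusted p under 0.05). Mx1, an antiviral GTPase, was at -0.80 ± 0.12 and its relative Mx2 at -0.73 ± 0.24. The antiviral protein genes Ifit1 and Isg15 were at 0.66 ± 0.12 and 0.51 ± 0.14. Ifng was never well above background.

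Genes whose pattern over the 4 arrays was nearest to that of Cxcl2, by Euclidean distance of levels centred on each gene's mean, were AK037397 (0.72), Dusp1 (0.80), 4930478L05Rik (0.80), Fndc7 (0.81) and 1700007J24Rik (0.89). Of these, 4930478L05Rik and 1700007J24Rik were not well above background on KO array 1, at processed intensities of 1.94 and 5.35. Dusp1, an inducible phosphatase of MAP kinases, was at 1.26 and 3.38 in miR-223 KO and 2.89 and 4.32 in WT (-1.29 ± 0.87; adjusted p = 0.564, limma). Like Cxcl2 it had 1 low and 1 high array in each genotype and was highest on WT array 2. The Dusp1 difference was -0.22 without KO replicate 1, -2.35 without KO replicate 2, -2.0 without WT replicate 1 and -0.57 without WT replicate 2. Nearest to Cxcr2 were Adam30 (0.16) and Hdac9, Trpm2, Vil1 and AK048083 (0.21 each). Adam30 was dim, with processed intensities of 7.85 to 24.1, and was not well above background on WT array 1. Trpm2, a cation channel of neutrophils, was at 1.23 and 1.63 in KO and 0.04 and 0.92 in WT (0.95 ± 0.35; adjusted p = 0.364).

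The labelled cell type was checked on marker genes. Of 17 neutrophil markers, 15 had a probe and all 15 were tested. The granule genes Ngp (8.85 and 9.02 in miR-223 KO, 8.60 and 8.29 in WT) and Lcn2 (7.96 and 8.28 in KO, 7.05 and 7.57 in WT) lay far above the 75th percentile. Both KO arrays were above both WT arrays for 5 of the 15 and below for 1 (27.8% and 20.2% of all tested genes), with a median of 0.15 and 0 past the test (limma; 3 higher at an unadjusted p under 0.05). Ly6g and Cebpe had no probe by name. The summed signal of the list was 4227 and 4693 in KO and 3845 and 4078 in WT. Cd177, a neutrophil surface protein, was at 0.77 ± 0.18 and Csf3r, the G-CSF receptor, at 0.44 ± 0.18. Cxcr2, which comes up late in neutrophil maturation, had the same order of arrays as this summed signal for its tested probe, whereas its second probe stood higher on WT array 2 than on KO array 1. The part of these markers in its values was not tested.

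Markers of other cells that make CXC ligands were also present. Of 15 macrophage and monocyte markers, all 15 were tested, 10 had both KO arrays below both WT arrays and 2 above (20.2% and 27.8% of all tested genes), the median was -1.11, and 0 passed the test (limma; 7 lower and 2 higher at an unadjusted p under 0.05). Mertk, which takes up dead cells, was at -2.04 ± 0.21, the matrix gene Fn1 at -1.91 ± 0.27 and the scavenger receptors Msr1 and Mrc1 at -1.28 ± 0.23 and -1.17 ± 0.20 (adjusted p = 0.240 to 0.251, limma). The summed signal of the list was 170 and 189 in miR-223 KO and 142 and 152 in WT, so its brightest members did not follow the median. For mast cells and basophils, 7 of 11 markers were tested, 6 had KO below WT and 0 above, with a median of -1.26 and summed signals of 27.9 and 19.6 in KO and 37.2 and 43.7 in WT. Mcpt4, Tpsb2, Tpsab1 and Cma1, proteases of mature mast cells, were never well above background. Dendritic cell markers had 5 of 9 below and 1 above, with a median of -0.44, and summed signals of 109 and 73.9 in KO and 98.6 and 111 in WT.

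In bulk samples of this kind, fewer cells of a type and less RNA per cell cannot be told apart. Macrophages and mast cells can make Cxcl1, Cxcl2 and Cxcl16, and the part of these cells in the ligands' values was not tested.

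Eosinophil and platelet genes were read beside the cluster that holds Pf4 and Ppbp. For eosinophils, 5 of 6 markers were tested and the summed signal was 19.7 and 25.9 in miR-223 KO and 11.6 and 58.1 in WT. The eosinophil granule genes Prg2 (3.15 and 3.63 in KO, 2.17 and 5.11 in WT) and Epx (1.03 and 1.55 in KO, 0.12 and 3.22 in WT) were highest on WT array 2, as were Cxcl1 to Cxcl3, and lowest on WT array 1. Ppbp had the same order of arrays as Prg2 and Epx, at -3.47 and -2.46 in KO and -3.96 and -1.36 in WT. Cxcl1, Cxcl2, Cxcl3 and Pf4 were instead lowest on KO array 1. Siglecf was at 0.78 ± 0.12 and Il5ra never well above background. The summed signal of 7 tested megakaryocyte and platelet markers of 8 was 1.71 and 1.56 in KO and 2.49 and 2.05 in WT. Both KO arrays lay below both WT arrays for 3 of the 7 and above for 2 (20.2% and 27.8% of all tested genes). By sign, 3 differences were negative and 4 positive, with a median of 0.19. Itga2b, the platelet integrin chain, was at -1.64 ± 0.39 and Vwf at -0.59 ± 0.18. The part of these cells in the values of Pf4 and Ppbp was not tested.

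Further marker lists were dim or mixed. Of 7 B cell markers 5 were tested, with a median of -0.22 and sums of 2.98 and 2.48 in miR-223 KO and 2.36 and 1.69 in WT. Of 6 erythroid markers 2 were tested, with a median of 0.08. Of 10 stromal and endothelial markers 5 were tested, with a median of 0.16, and Cdh5, Col3a1, Lepr and Dcn were never well above background. No gene of any marker list passed the test.

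**Figure D4:**
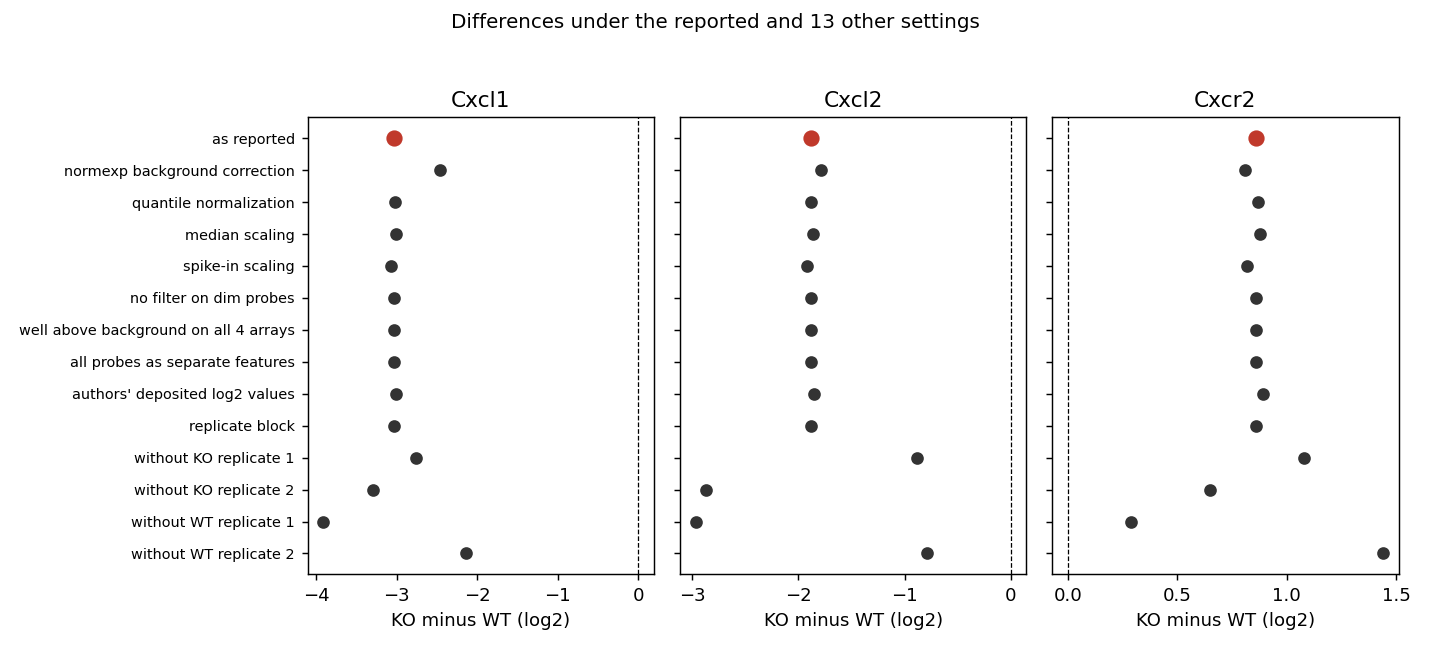
KO minus WT log2 difference (x axis) of Cxcl1, Cxcl2 and Cxcr2 as reported (red) and under 13 other settings (black), which include leaving out each array. Cxcl1 stays between -3.91 and -2.14 and Cxcl2 between -2.97 and -0.79, with the ends of both ranges given by fits without a WT array.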

How the data were processed

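Total RNA of 4 samples was hybridised to Agilent arrays of design 014868, 1 colour. The deposited intensity values were made with Agilent Feature Extraction 10.5.1.1, per the file headers: background and spatial trend removed, surrogate values for dim spots, no normalization between arrays. The authors' deposited log2 values, made in a way not given in the sources used here, were the log2 intensity plus 1 constant per array (99.8% of 41150 probes within 0.01), with medians of 5.026, and served as an alternative.

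Control and outlier spots were left out, log2 values of a probe's spots averaged, and each array's 75th percentile (515 and 494 in KO, 586 and 486 in WT) subtracted. Of 41150 probes with values on all arrays, 26873 were named by systematic name and 110 by another accession through RefSeq genes of GRCm38.p6, and 14167 kept the files' names. Probe coordinates are mm9, per the file headers. Each gene was read by its probe with the highest mean. Genes well above background on both arrays of a genotype (16779 of 28498) were tested with limma 3.58.1 in R 4.3.3, tested first on simulated data, with Benjamini-Hochberg adjustment at 0.05. Well above background were 62.2% and 63.1% of probes in KO and 63.6% and 57.6% in WT; no spot was saturated, and the number of arrays limits the precision (median SE 0.156). Correlations of levels across genes were 0.985 to 0.994.

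The members and lists were chosen with earlier results of these data known. Named were all members, all CXC genes of the lists, up to 4 genes of each other list by p-value, the 5 nearest patterns of Cxcl2 and Cxcr2, neighbours on chromosome 5 and carriers of the shared stretch, the last 2 added after values were seen.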

Additional observations from a re-analysis of the deposited data

How the results depend on the processing

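Under 13 other settings (normexp background correction, quantile, median or spike-in scaling, no filter or a filter on all 4 arrays, all probes as features, the authors' deposited log2 values, the replicate block and leaving out each array), 0 members passed in any of them. The count of genes past an adjusted p of 0.05 (0 as reported) was 5 with normexp, 3 with spike-in scaling and 3 with all probes as features, and 0 in the other 10; the cause was not tested. Cxcl1, Cxcl2, Cxcl10 and Cxcl16 kept a negative and Cxcr2 and Cxcr3 a positive difference in all 13. Cxcr4 turned positive with normexp (0.01), without KO replicate 1 (0.03) and without WT replicate 2 (0.06). Leaving out 1 array, where a lone sample is assumed to vary like the other group, moved the median difference of the members (-0.47) to between -0.42 and -0.03, with -0.03 without KO replicate 1 and -0.12 without KO replicate 2. Cxcl1 had adjusted p from 0.0966 to 0.774 and Cxcl2 from 0.207 to 0.879 over all settings. With every probe as a feature that median was -0.21. The medians of all genes moved by less than 0.1 between scalings.

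The replicate number is only a number in the labels. Deviations of same-numbered arrays from their genotype means correlated at 0.174 across genes. With 2 arrays per genotype the 2 pairs must give the same value, so they are not separate readings. With the replicate block, 0 genes passed, and the differences were again -3.03 for Cxcl1 and -1.88 for Cxcl2 (adjusted p = 0.207 for both). Cxcl5 and Cxcl9 were limited by signal near background.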
